A study of Danio rerio with 16 samples.

Results

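A set of 10 genes widely used to mark astroglia and radial glia was followed across 4 kinds of sorted zebrafish brain cells. They were gfap, cx43, s100b, fabp7a, fabp7b, sox2, sox9b, id1, nes and vim, chosen by name from the deposited count table. Each of the 10 was matched by exactly 1 row, out of 30565 gene symbols in all. Values are CPM (gene counts relative to library size, on the usual CPM scale), with library sizes adjusted for composition, so a gene's level can be compared between libraries but not with the level of another gene.

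The cells came from whole brains of 1-month-old transgenic fish, dissociated with papain and sorted by fluorescence, and each replicate was a pool of 8 brains. The cH cells were the GFP-positive cells of the line Tg(116A:Gal4FF:UAS:GFP), taken by the study as the caudal hypothalamic population. The LH cells were the GCaMP6s-positive cells of the line Tg(76A:Gal4FF:UAS:GCaMP6s), taken as the lateral hypothalamic population. The non-LH and non-cH cells were the reporter-negative brain cells of the same 2 lines, so they hold every other brain cell type, reporter-negative hypothalamic cells included. All groups carried a Gal4FF driver and a UAS reporter, and each group had 4 libraries. The labels do not say which cells of the hypothalamus each driver reaches. In bulk RNA a difference in the number of cells of a type and a difference in RNA per cell cannot be told apart.

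Library totals ran from 26.8 M to 49.4 M counts. The cH libraries detected 13478 to 16887 gene symbols, against 19430 to 20038 in LH, 20572 to 21015 in non-LH and 18843 to 20541 in non-cH. cH libraries 1 and 2 had the fewest, with 13478 and 13663. Of 10 neuronal markers, all tested, 10 were lower in cH than in non-cH (edgeR adjusted p under 0.05), where 6.76% of all 17294 genes were. The summed level of these markers was 1209 to 2767 CPM in cH and 16184 to 17657 CPM in non-cH. In LH the neuronal sum was 13437 to 14925 CPM, against 14754 to 16577 CPM in non-LH. Single neuronal markers did differ there: 3 of the 10 were higher and 4 lower in LH (edgeR adjusted p under 0.05). Of all 18686 genes 7.15% were higher and 6.23% lower. With all 16 libraries in the fit 0 neuronal markers were higher and 1 was lower, where 134 and 197 of 20263 genes were.

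In the fish brain radial glia persist into adult life. They line the ventricles, act as neural stem cells and carry out tasks that astrocytes perform in mammals, such as uptake of transmitters and coupling through gap junctions. The caudal hypothalamus borders a ventricular recess whose lining keeps producing neurons in zebrafish. The 10 genes do not mark one state: gfap, cx43, s100b and fabp7a are found in mature astroglia, sox2, sox9b and id1 encode regulators of stem and progenitor cells, and nes and vim encode intermediate filament proteins used as markers of immature neural cells. Vimentin, nestin and Id1 are also made by endothelial and mesenchymal cells, and S100B and Sox2 occur in some oligodendrocyte lineage and ependymal cells.

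**Figure D1:**
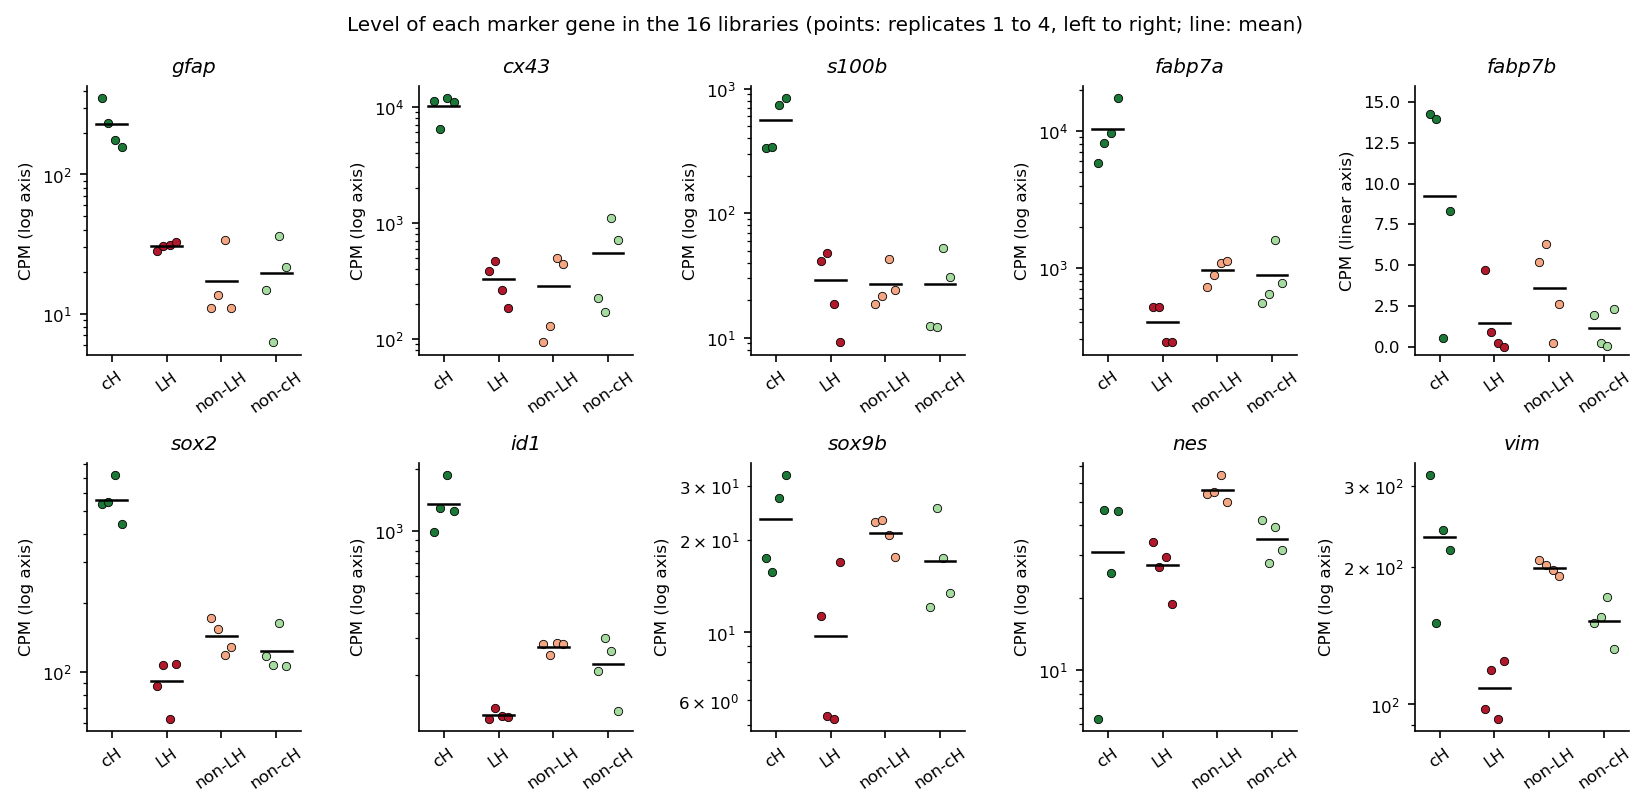
CPM of each of the 10 genes in the 16 libraries, with groups along the x axis and CPM on a log axis (linear for fabp7b); points are replicates 1 to 4 from left to right and the line is the group mean. The cH points of gfap, cx43, s100b, fabp7a, sox2 and id1 lie above all points of the other 3 groups, while those of nes, sox9b, vim and fabp7b overlap with other groups.

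Between the GFP-positive and GFP-negative cells of the 116A line, 6 of the 10 genes were higher in cH: gfap, cx43, s100b, fabp7a, sox2 and id1, with no overlap between groups. The other 4 (fabp7b, sox9b, nes and vim) did not pass the test, and 0 were lower (edgeR quasi-likelihood test, Benjamini-Hochberg adjustment over 17294 genes, threshold 0.05). This fit takes a shared spread per gene for both groups, although cH libraries spread more, so its p-values are approximate. Over all genes tested 5.18% were higher and 6.76% lower in cH; 9.15% had all 4 cH libraries above all 4 non-cH libraries and 18.3% had them below. The median log2 fold change of the 10 genes was 2.81, against -0.18 for all genes, a shift of all genes that was -0.14 with median-ratio (RLE) size factors and -0.36 with total counts. The summed share of the 10 genes was 2.12% ± 0.512 in cH libraries, against 0.213% ± 0.106 in non-cH libraries (SD, n = 4 each). Leaving fabp7a out, it was 1.18% ± 0.167 in cH libraries and 0.12% ± 0.0538 in non-cH libraries. Most of that remainder in cH was cx43, at 0.945, 0.675, 1.02 and 0.976% of counts.

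Among the structural and coupling genes, gfap encodes the glial fibrillary acidic protein, the filament protein of astroglia. It was at 353, 233, 176 and 156 CPM in cH, against 14.9, 6.23, 36.0 and 21.8 CPM in non-cH. The groups lay far apart, and cH libraries 1 and 2 were the highest. The log2 fold change was 3.54 ± 0.57 (SE; edgeR adjusted p = 0.00716).

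The connexin 43 gene cx43 encodes a gap junction protein that couples astroglia. Its levels were 11076, 6420, 11812 and 10865 CPM in cH, against 224, 169.8, 1092 and 717 CPM in non-cH. cH libraries 1, 3 and 4 were alike and library 2 was lower, while non-cH libraries 3 and 4 stood above 1 and 2. This gave a log2 fold change of 4.19 ± 0.64 (edgeR adjusted p = 0.0063).

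Calcium-binding S100 protein beta is encoded by s100b, which had 333, 341, 739 and 840.1 CPM in cH, against 12.5, 12.2, 52.59 and 30.8 CPM in non-cH. Here cH libraries 3 and 4 were the higher ones, the opposite of gfap. The log2 fold change of 4.38 ± 0.63 was the largest of the 10 (edgeR adjusted p = 0.00468).

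The brain-type fatty acid binding protein has a pair of zebrafish genes, fabp7a and fabp7b. fabp7a was at 5886, 8181, 9760 and 17461 CPM in cH, against 548, 637, 1606 and 768 CPM in non-cH. The groups were far apart, with cH library 4 well above the other cH libraries. The log2 fold change was 3.54 ± 0.48 (edgeR adjusted p = 0.00376). fabp7b was much more sparsely counted, with 14.3, 14.0, 0.509 and 8.3 CPM in cH, against 1.92, 0.218, 0.0438 and 2.31 CPM in non-cH. Its groups overlapped because cH library 3 was near 0, and its log2 fold change of 3.04 ± 1.53 did not pass (adjusted p = 0.315).

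Of the regulators, sox2 encodes a SoxB1 transcription factor of neural stem cells. It was at 537, 549, 720.0 and 441 CPM in cH, against 118, 108, 164 and 107 CPM in non-cH. Every cH library lay well above every non-cH library. This gave a log2 fold change of 2.18 ± 0.23 (edgeR adjusted p = 0.00142).

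Id1 is a helix-loop-helix protein that blocks proneural factors, and BMP signalling is known to induce its gene. id1 was at 988, 1294, 1868 and 1247 CPM in cH, against 209.6, 301, 262 and 134 CPM in non-cH. All cH libraries were above all non-cH libraries, with library 3 the highest of cH. The log2 fold change was 2.57 ± 0.31 (edgeR adjusted p = 0.00239).

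The SoxE gene sox9b behaved differently, at 17.5, 15.7, 27.5 and 32.7 CPM in cH and 12.1, 25.5, 17.5 and 13.4 CPM in non-cH. The groups overlapped, and the log2 fold change of 0.45 ± 0.56 did not pass (edgeR adjusted p = 0.771). Its paralogue sox9a, in contrast, was at 303 ± 54.6 CPM in cH libraries, against 38.0 ± 9.47 CPM in non-cH libraries (SD, n = 4 each), a log2 fold change of 2.99 ± 0.26 (edgeR adjusted p = 0.00088).

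Nestin and vimentin form filaments in neural stem and progenitor cells. nes was at 6.3, 46.1, 25.4 and 45.9 CPM in cH, against 42.0, 27.8, 39.3 and 31.5 CPM in non-cH. cH library 1 was the lowest of all 16 libraries, and the other cH libraries lay around the non-cH range. This gave a log2 fold change of -0.18 ± 0.62 (edgeR adjusted p = 0.933), and 0.16 without cH library 1. vim was at 318, 151, 241 and 218 CPM in cH, against 151, 156, 172 and 132 CPM in non-cH. cH libraries 1, 3 and 4 were above every non-cH library and library 2 was not, with a log2 fold change of 0.61 ± 0.25 (edgeR adjusted p = 0.198). It passed in the fit of all 16 libraries (adjusted p = 0.0397) and without cH library 2.

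**Figure D2:**
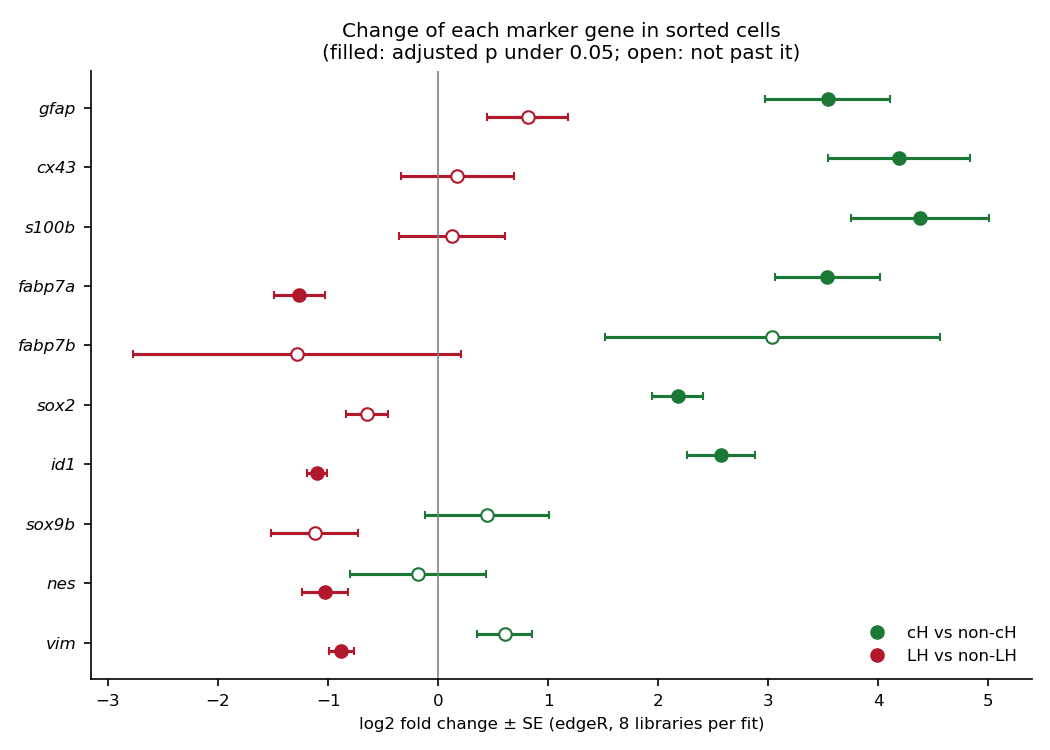
Log2 fold change of each of the 10 genes (rows) with its standard error, for cH against non-cH (green) and LH against non-LH (red); filled points passed an adjusted p of 0.05 and open points did not. The green points run from s100b at 4.38 to nes at -0.18, and the red points from gfap at 0.82 to fabp7b at -1.28.

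A comparison within each library does not depend on how libraries are scaled. Counts of each gene were therefore also divided by the sox2 counts of the same library; sox2 was chosen for this after its values were seen, and the ratios are given without a test. Per sox2 count, cx43 had 20.6, 11.7, 16.4 and 24.6 counts in cH, against 1.90, 1.58, 6.66 and 6.72 in non-cH. The ratio of s100b was 0.621 to 1.90 in cH and 0.106 to 0.321 in non-cH, and that of fabp7a 11.0 to 39.6 in cH and 4.65 to 9.79 in non-cH. The ratio of gfap was 0.245 to 0.658 in cH and 0.0578 to 0.220 in non-cH. A gene that rose more in cH than sox2 (log2 2.18) has a higher ratio there, so the ratio adds little to the fold changes. These 4 astroglial genes rose more, and were higher relative to sox2 in every cH library than in any non-cH library.

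The remaining genes were not. Relative to sox2, vim lay in a lower range in cH, with ratios of 0.593, 0.275, 0.335 and 0.494, against 1.28, 1.45, 1.05 and 1.24 in non-cH. The nes ratio was 0.0117 to 0.104 in cH and 0.24 to 0.357 in non-cH, and the sox9b ratio was 0.0287 to 0.0741 in cH and 0.103 to 0.237 in non-cH. None of these 3 overlapped between the groups. As sox2 itself was higher in cH by log2 2.18, a gene that rose less than sox2 has a lower ratio there. The share of all genes without overlap in this ratio was not computed. The id1 ratio was 1.84 to 2.82 in cH and 1.26 to 2.80 in non-cH, with overlap.

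**Figure D3:**
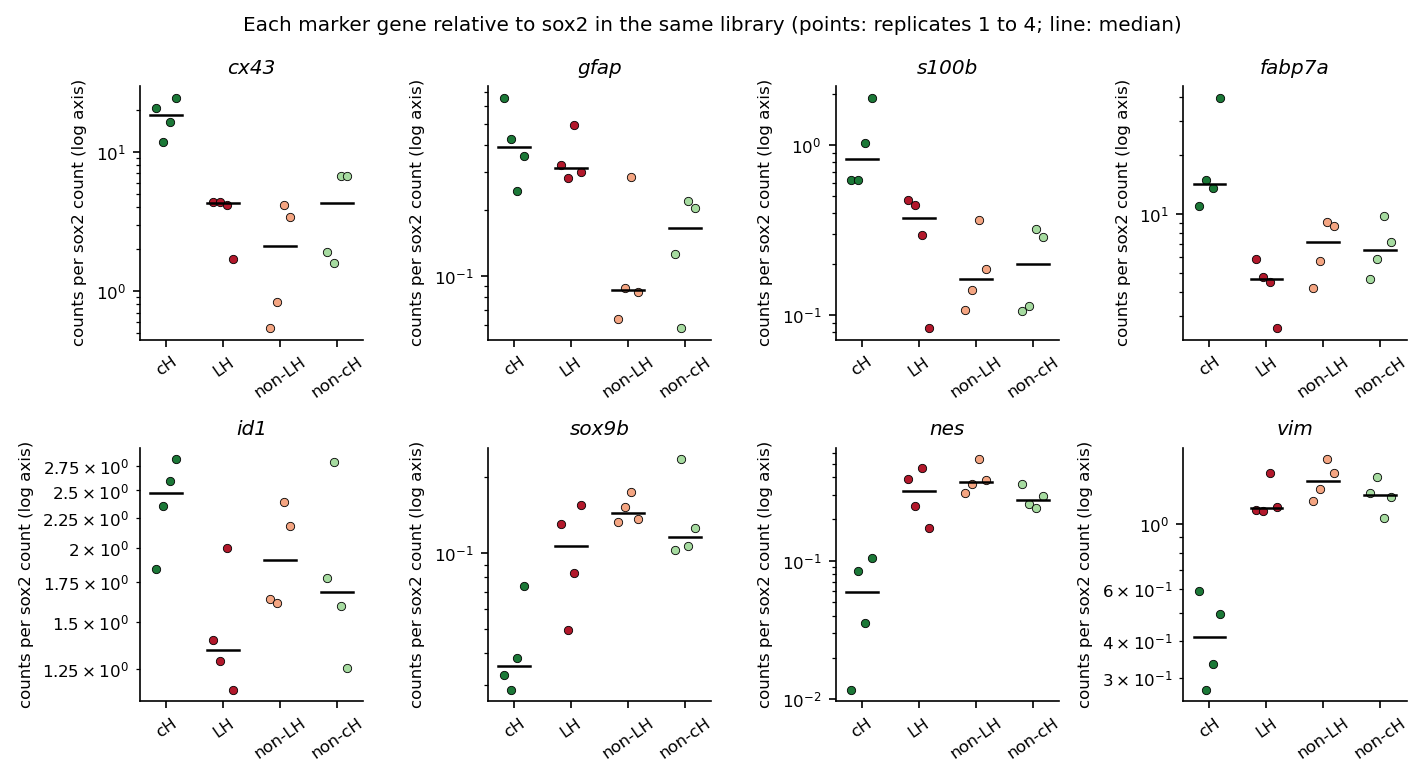
Counts of 8 of the genes divided by the sox2 counts of the same library, on a log axis, by group; points are replicates 1 to 4 and the line is the median. In cH the points of cx43, s100b and fabp7a lie above those of non-cH, and the points of sox9b, nes and vim lie below them.

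Values of other cell types stood beside the rise of the 6 genes in cH. For the counts below, 5.18% of all genes tested were higher and 6.76% lower in cH. Of 8 ependymal markers 7 were tested and 2 were higher in cH. Their summed level was 852, 910.1, 295 and 211 CPM in cH, against 53.5 to 85.9 CPM in non-cH, and 0 of the 8 were at 0 throughout cH. The ependymal sum was higher in cH libraries 1 and 2, as was gfap, whereas s100b and fabp7a were higher in libraries 3 and 4. Without cH libraries 1 and 2 the same number of the 10 genes, 6, was higher, and their median log2 fold change was 2.50. In that fit 1 of 7 ependymal markers was higher, as were 1494 of all 19765 genes. The main fit had 896 of 17294 genes higher. The endothelial and mural list had 1 of 11 tested members higher and 3 lower, with kdrl, cldn5b and egfl7 at 0 in all 4 cH libraries (flt1, also at 0 there, was too low to test in either group). Its sum of 458 to 1142 CPM in cH, against 160 to 260 CPM in non-cH, included notch3, which is in the radial glia list as well. kdrl and flt1 were also at 0 in all 4 LH libraries, and each has 2 rows in the count table. Of the meningeal and fibroblast markers 1 of 6 tested was higher (dcn, named after its values were seen) and 1 lower, at 244 to 609 CPM summed in cH and 110 to 1734 CPM in non-cH, with lum at 0 in cH; col1a1a was at 0 in both groups. Of the erythrocyte markers 5 of 5 tested were lower in cH, at 0.218 to 10.2 CPM summed in cH and 1077 to 2826 CPM in non-cH. Oligodendrocyte lineage markers had 0 of 10 tested past the test, with sums of 5600, 455.5, 4998 and 7602 CPM in cH, where library 2 stood apart, and 7295 to 13703 CPM in non-cH. Microglial markers had 0 of 8 past the test, with sums of 70.8, 729, 506 and 648 CPM in cH and 857 to 1400 CPM in non-cH. Of the markers of dividing cells 1 of 6 passed, lower. Their sums were 528 to 1053 CPM in cH and 894 to 1149 CPM in non-cH. The part of these cell types in the result was not tested.

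Between the GCaMP6s-positive and GCaMP6s-negative cells of the 76A line, 4 of the 10 genes were lower in LH: fabp7a, nes, vim and id1. The other 6 did not pass, and 0 were higher (edgeR quasi-likelihood test over 18686 genes); at an unadjusted p under 0.05, 6 genes passed, all of them lower, where 25.2% of all genes passed in either direction. With DESeq2 0 were higher and 6 lower, where 10.5% of all genes were higher and 9.74% lower. Over all genes tested with edgeR 6.23% were lower and 7.15% higher in LH, and 11.3% had all LH libraries below all non-LH libraries, which held for 6 of the 10. The median log2 fold change of the 10 genes was -0.95, against -0.01 for all genes. The summed share of the 10 genes was 0.116% ± 0.0295 in LH libraries, against 0.208% ± 0.0402 in non-LH libraries (SD, n = 4 each).

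The call with the smallest p was that of id1, at 122, 139, 125 and 125 CPM in LH, against 283, 248, 284 and 280.4 CPM in non-LH. The spread within each group was small beside the gap between them. The log2 fold change was -1.10 ± 0.09 (edgeR adjusted p = 4.72e-05).

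vim was at 97.6, 119, 93.0 and 124 CPM in LH, against 207, 201, 197 and 191 CPM in non-LH, again without overlap. Its log2 fold change was -0.88 ± 0.12 (edgeR adjusted p = 0.000876). nes was at 33.9, 26.8, 29.6 and 18.9 CPM in LH, against 53.7, 54.7, 64.6 and 49.6 CPM in non-LH. Every LH library was below every non-LH library, with a log2 fold change of -1.03 ± 0.21 (edgeR adjusted p = 0.00863).

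fabp7a was at 513, 511, 283 and 283 CPM in LH, against 722, 886, 1089 and 1117 CPM in non-LH. LH libraries 1 and 2 formed the upper pair and 3 and 4 the lower pair, all under non-LH. This gave a log2 fold change of -1.26 ± 0.23 (edgeR adjusted p = 0.00583). With all 16 libraries in the fit the calls of id1 and vim held (adjusted p = 0.02 and 0.0336), and those of fabp7a and nes were lost (adjusted p = 0.134 and 0.454).

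The remaining regulators were lower in value without passing. sox2 was at 87.3, 108, 62.7 and 109 CPM in LH, against 173, 154, 119 and 129 CPM in non-LH, with no overlap and a log2 fold change of -0.65 ± 0.19 (edgeR adjusted p = 0.0539). It passed in 3 of 15 alternatives, DESeq2 among them (adjusted p = 0.00932), and over all 15 the adjusted p ran up to 0.214. sox9b was at 11.3, 5.32, 5.22 and 16.9 CPM in LH, against 22.9, 23.4, 20.9 and 17.6 CPM in non-LH (log2 fold change -1.12 ± 0.40, edgeR adjusted p = 0.0999). Its groups did not overlap, but LH library 4 was close to the lowest non-LH library. It passed without LH library 4 (log2 fold change -1.54, adjusted p = 0.0241) and with DESeq2 (adjusted p = 0.0436), and over the alternatives the edgeR adjusted p ran up to 0.408.

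Of the 4 genes described above as found in mature astroglia, fabp7a alone was lower in LH. The others, gfap, cx43 and s100b, did not pass, nor did fabp7b. gfap was at 28.2, 30.4, 31.0 and 32.5 CPM in LH, against 11.0, 13.6, 33.8 and 10.9 CPM in non-LH. The 4 LH libraries were nearly alike and above 3 of the 4 non-LH libraries, but under non-LH library 3. The log2 fold change was 0.82 ± 0.37 (edgeR adjusted p = 0.202). Without non-LH library 3 it was 1.37 and passed (adjusted p = 0.00526), and over the alternatives the adjusted p ran up to 0.707.

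cx43 was at 382, 472, 262 and 185 CPM in LH, against 93.3, 128, 493 and 438 CPM in non-LH (log2 fold change 0.17 ± 0.52, edgeR adjusted p = 0.897). The non-LH libraries fell into a low pair, 1 and 2, and a high pair, 3 and 4, around the LH values. s100b was at 41.4, 47.9, 18.7 and 9.16 CPM in LH, against 18.5, 21.6, 43.0 and 24.2 CPM in non-LH (0.13 ± 0.49, edgeR adjusted p = 0.923), with wide overlap. fabp7b had 4.73, 0.909, 0.242 and 0 CPM in LH and 5.17, 6.28, 0.213 and 2.63 CPM in non-LH (-1.28 ± 1.49, edgeR adjusted p = 0.689).

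Relative to sox2 in the same library, gfap was at 0.324, 0.283, 0.493 and 0.299 counts per sox2 count in LH, against 0.0638, 0.0883, 0.284 and 0.0847 in non-LH. The lowest LH ratio and the highest non-LH ratio, that of library 3, were nearly equal. The vim ratio was 1.103 to 1.48 in LH and 1.199 to 1.66 in non-LH, and the nes ratio 0.174 to 0.472 in LH and 0.311 to 0.543 in non-LH, both with overlap.

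Markers of several other cell types also differed between LH and non-LH. Over all genes tested 7.15% were higher and 6.23% lower in LH. Erythrocyte markers had 5 of 5 tested members lower, at 53.1 to 102 CPM summed in LH and 1777 to 2613 CPM in non-LH. Of 7 markers of dividing cells 6 were tested and 5 were lower in LH, with a summed level of 441 to 733 CPM in LH and 1375 to 1581 CPM in non-LH; the remaining marker, cdk1, was too low to test in any group. Oligodendrocyte lineage markers had 0 of 11 past the test. Their summed level was 9765, 12395, 2388 and 1571 CPM in LH, against 9309 to 12749 CPM in non-LH, and 0 of them were at 0 throughout LH. In LH the libraries that were high in these markers, 1 and 2, were also those high in cx43, s100b and fabp7a. Microglial markers had 2 of 9 tested members higher, at 1120 to 2953 CPM summed in LH and 757 to 1148 CPM in non-LH. Ependymal markers had 0 of 7 and meningeal markers 0 of 6 past the test, and 1 of 10 endothelial and mural markers was higher and 1 lower. The part of these cells in the values of the 10 genes was not tested.

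The direct comparison of cH with LH, which also sets different lines and reporters against each other, so that these and the cell population cannot be told apart, had 7 of the 10 genes higher in cH and 0 lower. Of all 17020 genes tested 5.96% were higher and 7.65% lower in cH, while 10.2% had all cH libraries above all LH libraries and 20.9% below. The 7 were cx43 (log2 fold change 4.95 ± 0.37), fabp7a (4.70 ± 0.43), s100b (4.26 ± 0.63), id1 (3.40 ± 0.22), gfap (2.91 ± 0.30), sox2 (2.62 ± 0.25) and vim (1.098 ± 0.26). Their edgeR adjusted p-values ran from 0.000202 for id1 to 0.0237 for vim. The call of vim was lost without LH replicate 1 (adjusted p = 0.0801) and in 2 other cases of a single library left out. nes was at 31.0 ± 19.1 CPM in cH and 27.3 ± 6.33 CPM in LH (SD, n = 4 each; log2 fold change 0.18 ± 0.64, edgeR adjusted p = 0.919).

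Whether the change between positive and negative cells differed between the lines was tested in 1 model of all 16 libraries. That model takes 1 spread per gene for all groups, although cH libraries spread more, so its p-values are approximate. The difference of differences, cH minus non-cH against LH minus non-LH, was positive and past the threshold for 7 of the 10 genes, where 4.5% of 20263 genes passed in that direction and 7.65% in the other. The largest was that of fabp7a (log2 4.80 ± 0.55, edgeR adjusted p = 3.86e-05), followed by s100b (4.26 ± 0.82), cx43 (4.01 ± 0.87), id1 (3.67 ± 0.32), sox2 (2.83 ± 0.31), gfap (2.72 ± 0.68) and vim (1.48 ± 0.28). Those of fabp7b, sox9b and nes did not pass (adjusted p = 0.258, 0.157 and 0.485).

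The negative fractions of the 2 lines were set against each other as a check on the background. Of the 10 genes 0 passed in non-LH against non-cH (edgeR), where 0.0689% of 18860 genes did (0.0265% higher and 0.0424% lower in non-LH); at an unadjusted p under 0.05, 2 passed, nes and vim, where 8.35% of all genes did. With DESeq2 0 passed after adjustment, where 1.49% of all genes did. vim was at 199 ± 6.60 CPM in non-LH and 153 ± 16.6 CPM in non-cH (SD, n = 4 each; adjusted p = 0.342), and nes at 55.7 ± 6.37 CPM in non-LH and 35.2 ± 6.63 CPM in non-cH (adjusted p = 0.334). Their libraries did not overlap, which held for 3.62% of all genes with non-LH above and 2.87% with non-LH below.

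The genes differed in how far replicates of the negative fractions spread. The highest library had 5.28 times the cx43 level of the lowest in non-LH and 6.43 times in non-cH, and 3.09 and 5.79 times the gfap level. For vim these ratios were 1.08 and 1.31, and for sox2 1.45 and 1.54. In both fractions library 3 was the highest for cx43, gfap and s100b.

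Over the 4 groups cH was highest on average for 9 of the 10 genes, and nes was highest in non-LH. The step below cH was free of overlap for gfap, fabp7a, s100b, cx43, sox2 and id1, and overlapped for vim, sox9b and fabp7b. Of all genes tested, 9.15% had all cH libraries above all non-cH libraries and 10.2% had them above all LH libraries. Shares of all genes by order of the 4 groups were not computed. The lowest group was LH for fabp7a, sox2, sox9b, nes, vim and id1, where the step above it was free of overlap for fabp7a and vim. For gfap and s100b the order below cH was LH, non-cH and non-LH, with every neighbour overlapping.

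Other genes known from radial glia and astroglia showed how wide the pattern was. A list of 50 names gave 46 genes in the table and 37 that could be tested in both comparisons of positive with negative cells. In cH 23 of the 37 were higher and 0 lower, where 5.18% and 6.76% of all genes were. The median log2 fold change of the 37 was 2.51 (all genes, -0.18). With DESeq2 25 of 36 were higher and 2 lower, where 10.3% and 11.5% of all genes were. The 3 named by smallest p were msi1, an RNA-binding protein gene of neural stem cells, at 333 ± 46.8 CPM in cH libraries, against 58.5 ± 5.02 CPM in non-cH libraries (log2 fold change 2.51), the receptor phosphatase gene ptprz1b, at 1029 ± 273 CPM in cH libraries, against 180.4 ± 31.8 CPM in non-cH libraries (2.51), and mdka, a midkine growth factor gene, at 1863 ± 559 CPM in cH libraries, against 351 ± 56.9 CPM in non-cH libraries (2.41; SD, n = 4). Their edgeR adjusted p-values were 0.00076, 0.00128 and 0.00142.

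In LH 2 of the 37 were higher and 13 lower, where 7.15% and 6.23% of all genes were. The median of the 37 was -0.22, against -0.01 for all genes. The lower ones included pax6a, a regulator of progenitors and of some neurons, at 15.4 ± 0.974 CPM in LH libraries, against 95.6 ± 14.9 CPM in non-LH libraries (SD, n = 4; log2 fold change -2.63, edgeR adjusted p = 9.73e-06). They also included her15.1, a Notch target gene, at 74.2 ± 5.23 CPM in LH libraries, against 322 ± 82.5 CPM in non-LH libraries (-2.12, adjusted p = 5.51e-05). With all 16 libraries in the fit 1 was higher and 7 were lower, where 134 and 197 of 20263 genes were. There were 6 genes that were higher in cH and lower in LH, each against its negative cells: her4.4, plpp3, notch3, cspg5b, msi1 and lfng. The share of all genes with calls in both comparisons was not computed. Of these 6 all but msi1 were named after their values were seen, as was the 1 gene higher in both, the glutamate transporter gene slc1a3b. Its mean level was 4668 CPM in cH libraries, against 138 CPM in non-cH libraries, and 211 CPM in LH libraries, against 77.8 CPM in non-LH libraries.

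**Figure D4:**
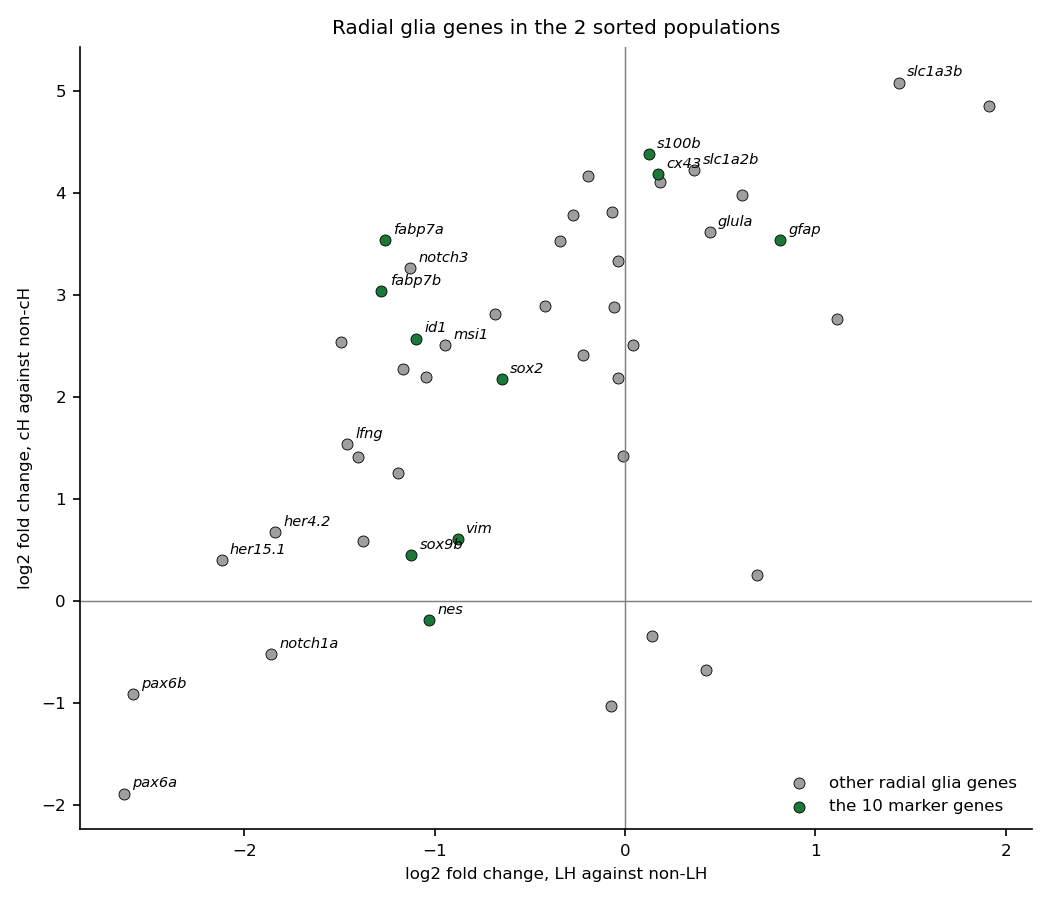
Log2 fold change of the 10 genes (green) and of 37 other radial glia genes (grey), with LH against non-LH on the x axis and cH against non-cH on the y axis. Most points lie above 0 on the y axis, and pax6a, pax6b, notch1a and nes are among those below it and to the left of 0.

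The relatives of the 10 genes did not all share their pattern. For the counts by family below, 5.18% of all genes tested were higher and 6.76% lower in cH. In LH 7.15% were higher and 6.23% lower. The family counts were not tested against these shares. Of the 5 id genes 3 were higher in cH, with id2a at 1322 ± 497 CPM in cH libraries, against 352 ± 61.9 CPM in non-cH libraries (SD, n = 4; log2 fold change 1.91, edgeR adjusted p = 0.00649) and id3 at 163 ± 117 CPM in cH libraries, against 40.0 ± 12.3 CPM in non-cH libraries (2.03, adjusted p = 0.0385). id4, named after its values were seen, was at 10.8 ± 6.31 CPM in cH libraries, against 37.9 ± 8.71 CPM in non-cH libraries. Its log2 fold change of -1.82 did not pass (edgeR adjusted p = 0.0963). With DESeq2 3 of the 5 were higher in cH and 1 lower, where 10.3% and 11.5% of all genes were. In LH 1 of the 5 was lower, id1 itself.

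Of 11 soxB1 and soxE genes 5 were higher in cH and 0 lower. Beside sox2 and sox9a, sox1b, sox3 and sox19a rose by log2 1.93, 1.71 and 1.14 (edgeR adjusted p = 0.00503, 0.00852 and 0.0414). In LH 3 of the 11 were lower, among them sox19a, at 39.7 ± 3.86 CPM in LH libraries, against 131 ± 17.2 CPM in non-LH libraries (SD, n = 4; log2 fold change -1.73, edgeR adjusted p = 4.16e-05), and sox3 (-1.59, adjusted p = 0.00274). sox10, the oligodendrocyte lineage member, named after its values were seen, was at 12.0 CPM in cH and 77.4 CPM in non-cH on average (adjusted p = 0.469).

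Of 21 intermediate filament genes found, 19 were tested in cH against non-cH and 19 in LH against non-LH. In cH 2 were higher, gfap and viml, and 3 lower, where 5.18% and 6.76% of all genes were. viml, a vimentin-like gene, was at 126 ± 52.59 CPM in cH libraries, against 7.79 ± 3.37 CPM in non-cH libraries (SD, n = 4; log2 fold change 4.02, edgeR adjusted p = 0.00302). The neurofilament gene nefmb had 0 counts in all 4 cH libraries, against 7.18 ± 3.69 CPM in non-cH libraries. Taking 3 counts summed over the 4 cH libraries as the limit, it was at least 317-fold lower. The nuclear lamin gene lmnb1 was at 54.2 ± 29.0 CPM in cH libraries, against 196 ± 35.8 CPM in non-cH libraries (log2 fold change -1.86, adjusted p = 0.0301). In LH 2 were higher and 5 lower, including inab, an internexin gene of neurons (-1.63, edgeR adjusted p = 0.000621), and the lamin gene lmnb2 (-0.44, adjusted p = 0.00756), beside nes and vim.

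Among 12 fabp genes found, 6 were tested and fabp7a was the 1 higher in cH, with 1 lower. In LH 2 were lower, fabp7a and fabp3, where fabp3, named for the heart-type protein, was at 65.7 ± 19.6 CPM in LH libraries, against 156 ± 20.1 CPM in non-LH libraries (SD, n = 4; log2 fold change -1.25, edgeR adjusted p = 0.00304). Of 13 s100 genes found, 5 were tested in cH and 3 were higher: s100b, s100v2 (log2 fold change 2.51 ± 0.57, edgeR adjusted p = 0.0228) and s100a10b (3.70 ± 0.93, adjusted p = 0.0345). In LH 0 of 6 tested passed with edgeR in either direction. With DESeq2 1 of 4 tested was higher and 0 lower, where 10.5% and 9.74% of all genes were. Of 21 connexin genes found, 5 were tested in cH and cx43 was the 1 higher. In LH 2 of 7 tested were lower, among them cx43.4, at 58.8 ± 3.91 CPM in LH libraries, against 96.6 ± 14.1 CPM in non-LH libraries (log2 fold change -0.72, edgeR adjusted p = 0.00723).

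The genes most like the 10 in pattern were found by distance. For each gene with at least 10 CPM in its highest group, log2 CPM over the 16 libraries was centred, and its root mean square distance from the median profile of the 10 genes was taken. The 6 nearest were msi1 (0.313), qkib (0.368), lgi1b (0.388), mdka (0.395), metrnl (0.399) and tmem47 (0.401), on the log2 scale, where the median of all such genes was 1.87. Of the 10 genes themselves, which make up that median profile, sox2 (0.312) and id1 (0.403) lay nearest to it. Farthest were fabp7b (2.12), nes (1.55) and cx43 (1.36). The distance counts the size of a change as well as its shape, and cx43 rose in cH by log2 4.19 against non-cH. qkib, an RNA-binding quaking gene, averaged 138 CPM in cH libraries, 13.7 CPM in LH libraries, 21.9 CPM in non-LH libraries and 19.2 CPM in non-cH libraries.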

How the data were processed

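The deposited values are unnormalized whole-number counts by gene for 16 libraries, in 1 table from the authors, made with SMART-seq amplification and Nextera XT tagmentation of low-input RNA, per the labels' protocols. FastQC, STAR and the build GRCz11 are named in the submitters' processing notes; the read counter, its treatment of multi-mapping reads and strand are not given in the sources used here. Of 47038 rows 9 that lacked a count in at least 1 library, some also without a gene name, were left out, and rows of a symbol with endings such as _1 were summed to 30565 symbols.

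Libraries were scaled with TMM factors over all 16 libraries. Each pair of groups was fitted on its own 8 libraries with edgeR 4.0.16 (R 4.3.3): filterByExpr (minimum count 10, minimum total count 15), robust quasi-likelihood F test, two-sided, Benjamini-Hochberg adjustment over all genes tested, threshold 0.05. Separate fits were used because cH libraries spread more than the others. A fit of all 16 is an alternative and was used for the difference of differences. Each fit of 8 libraries still takes a shared spread per gene for both its groups. The p-values of fits that include cH are therefore approximate as well. The SE was obtained from the fold change and F. Alternatives were DESeq2 1.42.0, other scaling, no filter, rows not summed, a replicate block and libraries left out. The fit was also run on simulated counts in which a gene had the same spread in both groups. As cH libraries spread more, that run cannot vouch for calls in cH.

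The 10 genes, the lists and the rule for named genes (per list, the 3 smallest p-values in cH and 2 in LH among called genes of at least 5 CPM) were chosen with earlier results of these data known. Replicates are separate pools of brains per the labels. The 3-count limit covers counting error only, because amplified reads carry no molecular identifiers. Names were matched through a RefSeq table of assembly GRCz12tu, and no coordinates were taken.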

Additional observations from a re-analysis of the deposited data

Results flagged for a closer look

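For 7 genes the change between positive and negative cells differed between the lines, by the test of the difference itself in 1 model (edgeR). The log2 difference of differences, cH minus non-cH against LH minus non-LH, was 4.80 for fabp7a, 4.26 for s100b, 4.01 for cx43, 3.67 for id1, 2.83 for sox2, 2.72 for gfap and 1.48 for vim. All 7 stayed past the threshold in each of the 22 alternatives tried. Each alternative also took 1 spread per gene for all groups, although cH libraries spread more. The alternatives therefore cannot show how far the p-values depend on that.

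A library far from the others of its group was found in 2 of 40 gene and group combinations, about the number that chance gives at 1 in 20. gfap in non-LH replicate 3 was at 33.8 CPM, with the nearest of the other libraries at 13.6 CPM. id1 in non-LH replicate 2 was at 248 CPM, below the nearest at 280.4 CPM.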

How the results depend on the processing

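Of the calls on the 10 genes, those of cH against non-cH held in every alternative except that of gfap. With a replicate block its edgeR adjusted p was 0.0539. Deviations from the group mean correlated at 0.000852 to 0.0457 between same-numbered positive and negative libraries. Between libraries of different number the correlations ran from -0.0672 to 0.0401. Values this small cannot decide whether samples were paired by number. With the block 344 genes were higher and 166 lower in cH, and the log2 fold change of s100b in LH was -0.069. Genes higher and lower in cH against non-cH (896 and 1169) were 1719 and 1921 with DESeq2, 1460 and 2642 with all 16 libraries in the fit, and 1494 and 2218 without cH libraries 1 and 2, where the log2 fold change of nes was 0.021. Those of cH against LH (1015 and 1302) were 2004 and 2199, 1761 and 2839, and 1768 and 2818 under these settings. In the difference of differences (912 and 1550) they were 1701 and 2449 with DESeq2, and 1602 and 3094 without cH libraries 1 and 2. In LH against non-LH (1336 and 1165) they were 134 and 197 with all 16 libraries, with 2 of the 10 genes lower. In non-LH against non-cH (5 and 8) they were 55 and 77 with rows not summed, 156 and 118 with DESeq2, and 2 and 0 with all 16 libraries.

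With 1 library left out, genes higher in cH against non-cH ranged from 449 to 1126 and genes lower from 309 (both lowest without non-cH replicate 4) to 1567. In non-LH against non-cH each ranged from 3 to 6. The number of the 10 genes higher in LH ranged from 0 to 1 (gfap, without non-LH replicate 3). Log2 fold changes that turned sign, none of them called, ranged in LH from -0.22 to 0.45 for s100b and -0.12 to 0.56 for cx43; in cH from -0.44 to 0.16 for nes against non-cH and -0.076 to 0.52 against LH; and in non-LH against non-cH from -0.74 to 0.28 for gfap, -0.074 to 0.55 for fabp7a and -0.33 to 0.54 for s100b. The cause was not tested. The counts of fabp7b ran from 0 to 460 per library, and no call was made on it.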

Other observations

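Each of the 10 genes has a single row in the count table. Among the other genes of the lists, symbols with several rows were more often too low to test: 15 of 35 symbols with 2 or more rows were tested in none of the comparisons, against 25 of 153 with 1 row. Among the 15 were the proliferation gene cdk1, the Notch target gene her6, the sodium pump gene atp1a1b, the microglial gene mpeg1.1 and the collagen gene col1a1a.

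The counts of fabp7b were even in 15 of 16 libraries, with the 0 of LH library 4 taken as even. Over all symbols, 65.9% of counts from 1 to 20 were even. Most fabp7b counts lay above that range, so these shares cannot be compared directly.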
